A study of Mus musculus with 78 samples.

Results

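The comparison described here set soleus RNA of 28-month-old mice against soleus RNA of 6-month-old mice in control libraries labelled F, read as female. Of the 78 libraries of the series, 10 were used: the 6 F libraries labelled with 28 months and batch 1 (replicates 8 to 13) and the 4 F libraries labelled with 6 months, also of batch 1 (replicates 1 to 4). All came from C57Bl/6 mice without any transgene or deletion, labelled Control and kept on a standard control feed, and the muscle was held in RNALater before freezing. The study profiled soleus of several ages, of F and M mice and of mice fed a compound. The 6-month mice came from a supplier in Singapore, and the labels do not say from which intake the 28-month mice of batch 1 came, so age and origin cannot be told apart.

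Soleus is a postural calf muscle rich in slow, oxidative fibres, which hold many mitochondria and draw most of their energy from oxidative phosphorylation. Ageing muscle loses mass and fibres lose contact with their motor neurons; a fibre without its nerve switches on acetylcholine receptor genes and their regulators. Protein breakdown in wasting muscle runs through ubiquitin ligases whose genes respond to FoxO transcription factors and to glucocorticoids.

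The measurements were RNA sequencing counts per gene. Levels are given on the counts-per-million scale (CPM), after scaling for library composition, and changes as the log2 fold change of 28 against 6 months with its standard error (SE). A gene is said to have risen or fallen where its adjusted p was under 0.05 in the quasi-likelihood test of edgeR, with the Benjamini-Hochberg adjustment over all genes tested. Each result was computed with all 10 libraries (6 against 4) and without 4 libraries that stood apart, which left 28-month replicates 9, 11 and 13 against 6-month replicates 1, 2 and 4. In whole muscle, fewer cells of a type and less RNA per cell cannot be told apart.

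Library totals ran from 30453296 to 59401193 counts at 28 months and from 19460372 to 77584756 counts at 6 months. The label F was checked with Xist, the RNA of the inactive X chromosome, which had 47.9 to 202 CPM of the library total in the 28-month libraries and 54.1 to 67 CPM in 3 of the 6-month libraries. The library labelled F 6-month replicate 3 had 0 CPM of Xist and 45.6 CPM of the Y-linked Ddx3y, which goes against its label. The share of counts on the mitochondrial genome was 14.5% ± 2.79 (SD, n = 6) at 28 months and 17.9% ± 1.87 (SD, n = 4) at 6 months. The difference did not pass a 2-sided exact permutation test (p = 0.0571, the smallest possible being 0.00952). With 3 against 3 libraries the exact permutation test gave p = 0.3, where 0.1 is the smallest possible.

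Markers of other cell types stood out in single 28-month libraries. The summed level of keratinocyte markers was 11477 CPM in 28-month replicate 8 and 9.85 to 19.3 CPM in the other 5, against 5.61 to 85.2 CPM at 6 months. Neutrophil markers summed to 1905 CPM in replicate 10, 568.2 CPM in replicate 12 and 69.1 CPM in replicate 9, against 0.874 to 4.54 CPM at 6 months. Erythroid markers summed to 11029 CPM in replicate 10 and 1649 CPM in replicate 12, against 159 to 312 CPM. Replicates 8, 10 and 12 are therefore the 3 libraries left out beside 6-month replicate 3. Among the libraries kept, replicate 11 held 1028 CPM of B cell and plasma cell markers, against 87.9 to 123.3 CPM at 6 months. Replicate 9 held 90569 CPM of fast-fibre genes, against 32567 to 53335 CPM at 6 months. Replicate 9 was also far from its group for several stress genes, so that calls lost without it, in addition to the 4 libraries, are named as such. Markers of slow fibres, in which soleus is rich, were present in every library, at 33769 to 51503 CPM at 28 months and 31354 to 53339 CPM at 6 months.

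**Figure D1:**
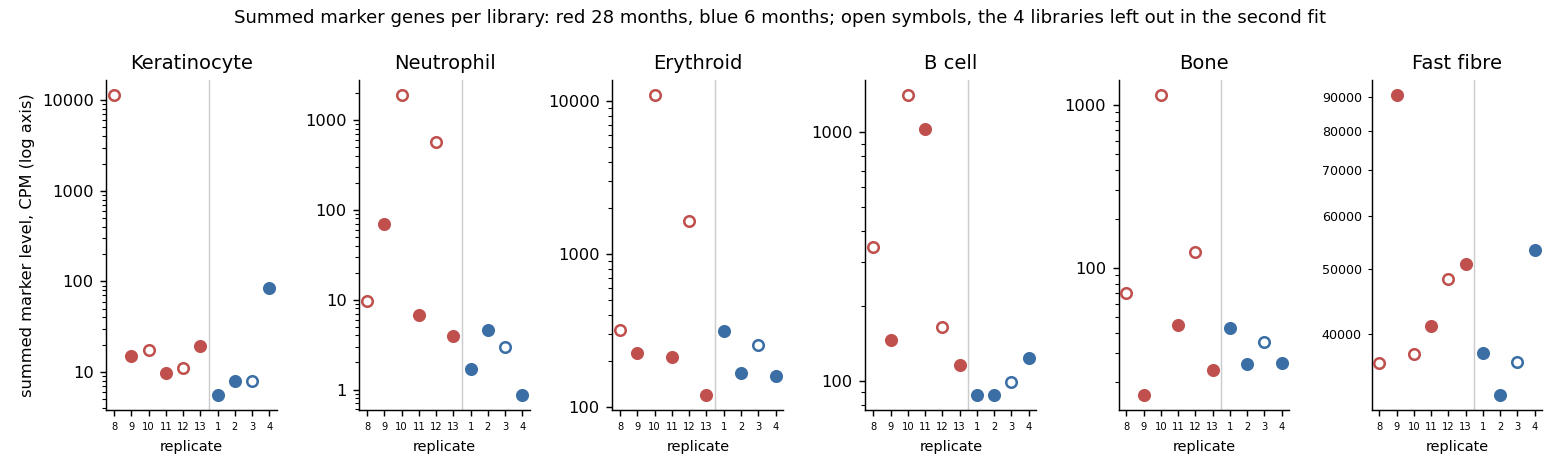
Summed CPM of 6 marker lists (vertical log axes) in each of the 10 libraries, with replicates 8 to 13 of 28 months in red and replicates 1 to 4 of 6 months in blue; open symbols are the 4 libraries left out. Replicate 8 stands at 11477 CPM for keratinocyte markers, replicate 10 at 11029 CPM for erythroid markers, and the kept replicates 9 and 11 at 90569 CPM for fast-fibre genes and 1028 CPM for B cell markers.

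With all 10 libraries, 1805 genes (9.91%) rose and 1647 (9.04%) fell among 18218 tested, or 18.9% in either direction. Under offsets for transcript length and GC content the split was 774 and 1283. Without the 4 libraries, 273 (1.49%) rose and 184 (1.00%) fell among 18379, or 2.49%, and with replicate 9 left out as well 40 (0.209%) rose and 64 (0.334%) fell among 19154, or 0.543%. A total of 248 genes (1.37% of 18148 tested in both) rose and 135 (0.744%) fell with and without the 4 libraries, 0 moved in opposite directions, and 32 (0.176%) rose and 11 (0.0606%) fell in all 3 sets. The spread in these tests was estimated over all 11 groups of the series. When it was estimated from the F libraries of the 2 ages alone, 0 genes passed in edgeR with all 10 libraries, where 3612 had an unadjusted p under 0.05, and 1 rose without the 4. DESeq2 on the same libraries called 807 higher and 849 lower, and 200 higher and 53 lower. Single libraries also moved the totals: 631 rose and 563 fell without 6-month replicate 3 alone, and 977 and 1237 without 6-month replicate 2 alone. From the 3 against 3 libraries, 677 rose and 607 fell without 28-month replicate 13, 49 and 28 without 6-month replicate 2, and 74 and 27 without 6-month replicate 4. Levels did not overlap between the ages for 416 genes (2.28%) higher at 28 months and 542 (2.98%) lower over the 10 libraries, and for 8.41% and 8.42% of genes over the 3 against 3. Genes that fell were short: their median transcript was 888 bases with all 10 libraries, against 1926 bases for genes that rose and 1463 bases over all genes tested.

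Transcripts of the respiratory chain were lower at 28 months. Of 78 nuclear genes that encode cytochrome c and subunits of complexes I to V, which pass electrons to oxygen and make ATP, 72 fell and 0 rose with all 10 libraries, against 9.04% of all genes falling. Without the 4 libraries 12 fell, against 1.00% of all genes, and with replicate 9 left out too 0 passed, against 0.334% of all genes. The median log2 fold change of the 78 was -0.71 with all libraries, -0.59 without 4 and -0.39 without replicate 9 as well, beside 0.09, -0.01 and -0.01 over all genes. Of the 78 values 77, 77 and 76 were negative. Together the 78 summed to 20004, 20307, 24163, 22988, 33604 and 33306 CPM in 28-month replicates 8 to 13 and to 33853, 41520, 47654 and 36613 CPM in 6-month replicates 1 to 4. The groups did not overlap in this sum, though 28-month replicates 12 and 13 lay just below the lowest 6-month library. Of the 78 single genes 17 were lower at 28 months without overlap, beside 2.98% of all genes. Single libraries moved the counts: without 6-month replicate 3 alone 40 fell, where 72 fell with all 10. From the 3 against 3 libraries, where 12 fell, 0 passed without 28-month replicate 11, without 6-month replicate 2 or without 6-month replicate 4, and 59 fell without 28-month replicate 13.

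Within complex I, which takes electrons from NADH, Ndufv1 carries the NADH-binding site and had 336, 314, 425, 402, 531 and 544 CPM at 28 months (replicates 8 to 13) and 591, 679, 733 and 569 CPM at 6 months. Every 28-month library was below every 6-month library, and the log2 fold change was -0.60 ± 0.12 (SE, adjusted p = 0.000607) with all libraries and -0.55 (adjusted p = 0.0374) without 4. Ndufb3, Ndufa9 and Ndufa8, accessory subunits of the same complex, fell by 0.73, 0.58 and 0.67 without the 4 libraries. In complex III, Uqcrfs1, the Rieske iron-sulfur protein, had 319, 325, 411, 379, 566 and 539 CPM at 28 months and 588, 699, 788 and 644 CPM at 6 months. Again the ages did not overlap (log2 fold change -0.68 ± 0.13, adjusted p = 0.000381). Sdhc, a membrane anchor of complex II, and Atp5f1, of the stator of ATP synthase, fell by 0.63 and 0.66 without the 4 libraries. None of these 7 genes passed once replicate 9 was left out as well, their log2 fold changes then lying between -0.33 and -0.46. Under offsets for transcript length and GC content 66 of the 78 still fell with all 10 libraries and 0 without the 4.

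Promoters of 3 of the 78 genes are shown because each holds a known recognition sequence of a regulator of respiratory genes within the 250 bases before its start. They are RefSeq sequences of build GRCm38.p6, written 5′ to 3′ on the gene's strand, with the match in capitals, searched on both strands. The motif of the oestrogen-related receptors, TCAAGGTCA, lay 52 bases before the start of Atp5g3 (chr2:73911327-73911576, minus strand), in the opposite orientation. The motif of nuclear respiratory factor 1, GCGCATGCG, began 9 bases before the start of Ndufa8 (chr2:36049339-36049588, minus strand) and 61 bases before that of Cycs (chr6:50566570-50566819, minus strand), in the opposite orientation in both.
Atp5g3: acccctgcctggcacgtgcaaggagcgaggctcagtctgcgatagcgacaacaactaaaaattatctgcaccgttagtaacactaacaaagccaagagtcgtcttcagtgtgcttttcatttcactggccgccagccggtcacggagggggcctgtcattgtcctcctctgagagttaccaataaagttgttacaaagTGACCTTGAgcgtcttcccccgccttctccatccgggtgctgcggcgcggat
Ndufa8: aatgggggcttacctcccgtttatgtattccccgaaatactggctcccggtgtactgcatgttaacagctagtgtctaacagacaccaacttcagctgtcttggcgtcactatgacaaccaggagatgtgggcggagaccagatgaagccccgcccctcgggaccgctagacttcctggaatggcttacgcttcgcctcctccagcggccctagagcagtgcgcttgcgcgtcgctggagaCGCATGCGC
Cycs: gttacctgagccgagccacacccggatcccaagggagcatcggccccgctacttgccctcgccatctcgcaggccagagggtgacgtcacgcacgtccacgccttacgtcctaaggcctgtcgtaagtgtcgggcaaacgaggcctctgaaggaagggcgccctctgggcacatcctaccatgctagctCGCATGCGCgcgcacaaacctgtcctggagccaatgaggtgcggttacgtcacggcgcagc
Of the 78 genes 64 had a promoter in the table, and 7 of these (10.9%) held the nuclear respiratory factor 1 motif, against 1.49% of all 27025 promoters and 2.63% of the promoters of genes tested. The oestrogen-related receptor motif was in 1 of the 64 (1.56%), against 0.366% and 0.255%. A match describes the letters in this window and does not show binding. Atp5g3, the c subunit of the ATP synthase rotor, had 436, 312, 544, 488, 712 and 738 CPM at 28 months and 750, 885, 960 and 807 CPM at 6 months. The ages did not overlap, and the log2 fold change of Atp5g3 was -0.66 ± 0.15 (SE) with all libraries and -0.67 without 4. Ndufa8 had 154, 109.8, 209, 173, 248 and 233 CPM at 28 months and 246, 295, 360 and 277 CPM at 6 months, with replicate 12 just inside the 6-month range. Cycs, the electron carrier cytochrome c, chosen after its values were seen, had 378, 279, 442, 409, 658 and 609 CPM at 28 months and 627, 800, 864 and 744 CPM at 6 months, again with replicate 12 inside the range. It fell with all libraries (-0.71 ± 0.18) and missed the threshold without 4 (-0.74 ± 0.22, adjusted p = 0.0523).

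**Figure D2:**
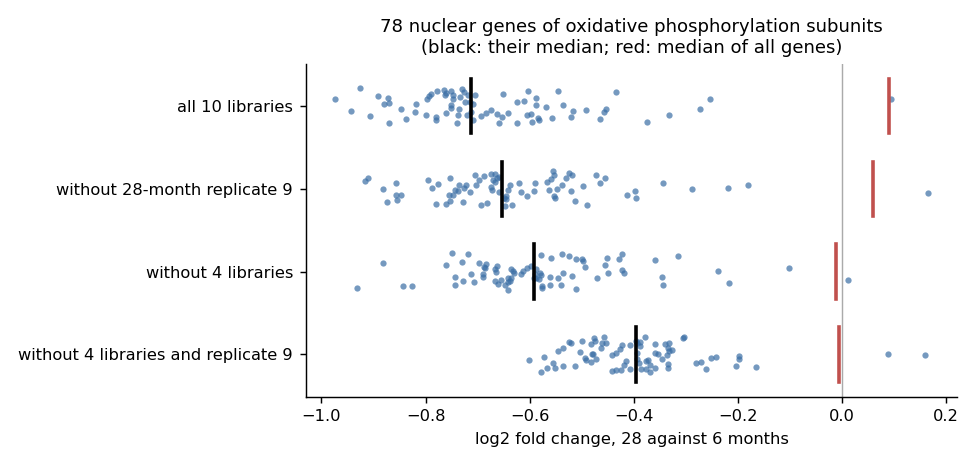
Log2 fold change of 28 against 6 months (horizontal axis) of the 78 genes, each a point, in 4 sets of libraries; black bars are their medians and red bars the medians of all genes. The points lie left of 0 for 77 of 78 genes with all 10 libraries and move toward 0, to a median of -0.39, without the 4 libraries and replicate 9.

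Nuclear genes that assemble or serve the respiratory chain were also among the largest falls. Ndufaf5, an assembly factor of complex I, had 11.0, 11.1, 13.4, 11.9, 16.0 and 14.8 CPM at 28 months and 20.8, 24.2, 30.6 and 25.5 CPM at 6 months. The log2 fold change of Ndufaf5 was -0.95 ± 0.17 (adjusted p = 0.000267) with all libraries and -0.89 ± 0.23 (adjusted p = 0.0236) without 4. Tmem126a, another protein of the inner membrane needed for complex I, had 26.3 to 44.9 CPM against 48.3 to 89.4 CPM and fell by 0.93 without the 4 libraries. Mrps33, of the small subunit of the mitochondrial ribosome, had 21 to 39 CPM against 45.5 to 58.2 CPM and fell by 1.00 (adjusted p = 0.00258). The 3 were picked among genes without overlap between the ages, and none passed without replicate 9 (adjusted p = 0.145, 0.125 and 0.0602). The 13 messenger RNAs of the mitochondrial genome itself had a median log2 fold change of -0.40 with all libraries and -0.48 without 4. In the first set 1 fell, beside 9.04% of all genes, and 0 passed in the second. The 1 was mt-Nd3, whose highest level was 1261 CPM in the 6-month replicate 3.

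Fewer of the enzymes that feed the chain passed. Of 27 genes of the tricarboxylic acid cycle and pyruvate entry, 15 fell and 0 rose with all libraries and 2 fell without 4, beside 9.04% and 1.00% of all genes falling, with median log2 fold changes of -0.36 and -0.39. Without the 4 and replicate 9, 0 passed (median -0.18). The 15 became 6 without 6-month replicate 3. The 2 became 0 without 28-month replicate 11, 6-month replicate 2 or 6-month replicate 4, 1 without 6-month replicate 1, and 13 without 28-month replicate 13. The 2 were Mpc2, a subunit of the carrier that brings pyruvate into mitochondria (111.4 to 271 CPM against 256 to 540 CPM, log2 fold change -0.91 ± 0.26 without 4), and Idh3b of isocitrate dehydrogenase (353 to 675 CPM against 669 to 793 CPM, -0.55). Both ranges overlapped, because 28-month replicate 12 or 13 reached the lowest 6-month library. Of 33 genes of fatty acid uptake and oxidation, 13 fell and 2 rose with all libraries, 1 fell without 4, and 0 passed without replicate 9 as well. That gene, Etfa, hands electrons from fatty acid oxidation to the chain and had 282, 198, 323, 317, 416 and 473 CPM at 28 months and 473, 604, 547 and 490 CPM at 6 months. Fabp3, the fatty acid carrier of heart and slow muscle, had 482 to 1954 CPM against 1993 to 3991 CPM. It fell with all libraries (log2 fold change -1.06 ± 0.23) but missed the threshold without 4 (adjusted p = 0.0843). Ldhb, the lactate dehydrogenase subunit of oxidative tissue, fell in both sets (581 to 1380.0 CPM against 1597 to 1926 CPM, -0.75 without 4), while of 31 genes of glycolysis and glycogen 2 rose and 3 fell with all libraries. Without replicate 9, Mpc2, Idh3b, Etfa and Ldhb did not pass (adjusted p = 0.279, 0.345, 0.297 and 0.306).

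Of 27 genes of mitochondrial biogenesis and dynamics, 4 rose and 7 fell with all libraries, 3 rose and 1 fell without 4, and 2 rose without replicate 9 as well. Of all genes 9.91% rose and 9.04% fell with all libraries, 1.49% and 1.00% without 4, and 0.209% and 0.334% without replicate 9 as well. The medians of the 27 were -0.07, -0.10 and -0.01, beside 0.09, -0.01 and -0.01 over all genes. Ppargc1a, the coactivator that drives mitochondrial gene expression, had 12.5, 24.8, 38.2, 29.1, 71.6 and 110 CPM at 28 months and 19.3, 16.7, 17.9 and 19.1 CPM at 6 months. Replicate 8 was below all 6-month libraries and the other 5 above them. Ppargc1a rose in each of the 3 sets of libraries (log2 fold change 1.39 ± 0.39, 1.58 ± 0.46 and 1.95 ± 0.48, adjusted p = 0.00935, 0.0483 and 0.0377). Ppard, a nuclear receptor for fatty acids that favours oxidative fibres, had 31.5, 48.8, 34.4, 47.0, 47.3 and 50.3 CPM at 28 months and 28.4, 23.5, 18.5 and 24.9 CPM at 6 months. Without overlap between the ages, Ppard rose in all 3 sets (0.86 ± 0.18, 0.93 ± 0.21 and 0.96 ± 0.23). Pprc1, a relative of Ppargc1a, rose with and without the 4 libraries (0.61 and 0.68), and Mfn1, which fuses mitochondria, fell (-0.53 and -0.61). Neither of these 2 passed without replicate 9 (adjusted p = 0.229 and 0.265). Vegfa, the vessel growth factor that oxidative muscle secretes, had 105, 98.8, 128, 142, 194 and 173 CPM at 28 months and 210, 286, 275 and 306 CPM at 6 months. Vegfa fell by 0.94 ± 0.18 and by 0.95 ± 0.23. Ostn, the secreted peptide musclin, had 26.7 to 62.2 CPM against 85 to 107 CPM and fell by 1.14 ± 0.18 and by 0.99 ± 0.23. Vegfa and Ostn were picked among genes without overlap between the ages, and neither passed without replicate 9 (adjusted p = 0.182 and 0.184).

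Myosin heavy chains, which set the fibre type, did not pass. Myh7 of slow fibres had 6170 to 12865 CPM at 28 months and 3997 to 11265 CPM at 6 months (adjusted p = 0.662 with all libraries). Myh2 and Myh1 of fast oxidative and intermediate fibres had adjusted p = 0.383 and 0.192. Myh4, of the fastest fibres, ranged from 37.6 to 14043 CPM at 28 months and from 10.5 to 6152 CPM at 6 months, so that libraries of 1 age differed more than the ages (adjusted p = 0.639). Over 15 slow-fibre contractile genes the median log2 fold change was -0.39 with all libraries and -0.20 without 4. In these sets 4 and 1 fell, beside 9.04% and 1.00% of all genes. That gene, Myl3, the slow essential light chain, had 2749, 2474, 3368, 3894, 3321 and 4866 CPM at 28 months and 5674, 7535, 7000 and 5651 CPM at 6 months, without overlap (-0.91 ± 0.14 and -0.75 ± 0.19), and missed the threshold without replicate 9 (-0.49, adjusted p = 0.237). Myl2, the slow regulatory light chain, and Tnnc1, slow troponin C, fell with all libraries (-0.92 and -0.78) and missed the threshold without 4 (adjusted p = 0.0600 and 0.0820). Atp2a1, the calcium pump of fast fibres, had 25366 CPM in replicate 9 and 4574 to 9175 CPM in the other 28-month libraries, against 4601 to 7068 CPM at 6 months. It rose with and without the 4 libraries but not without replicate 9 (adjusted p = 0.507 without the 4 and replicate 9).

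Some genes that respond to loss of nerve contact rose. Of 26 tested genes of the neuromuscular junction and the denervation response, 10 rose and 0 fell with all libraries, 5 rose without 4 and 3 rose without replicate 9 as well, beside 9.91%, 1.49% and 0.209% of all genes rising. Their median log2 fold changes were 0.68, 0.77 and 0.87. The 10 became 3 without 6-month replicate 3, 6 without 6-month replicate 2 and 4 with limma-voom. The 5 became 0 without 6-month replicate 2, 2 without 28-month replicate 11 or 6-month replicate 4, 3 without 6-month replicate 1, and 0 with limma-voom. Gadd45a, a stress protein induced in denervated fibres (chr6:67035096-67037457, minus strand, mm10), had 33.3, 61.1, 23.3, 224, 43.8 and 115 CPM at 28 months and 12.6, 16.7, 19.7 and 12.6 CPM at 6 months. All 28-month libraries were above all 6-month libraries, a condition by which Gadd45a was picked, and replicate 11 was highest. The log2 fold change of Gadd45a was 2.44 ± 0.68 (adjusted p = 0.00848), 3.25 ± 0.83 (adjusted p = 0.0261) and 3.64 ± 0.88 (adjusted p = 0.0321) in the 3 sets.

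Musk, the receptor kinase that gathers acetylcholine receptors under the nerve ending, had 9.16, 20.4, 11.9, 25.7, 19.5 and 24.0 CPM at 28 months and 10.5, 8.86, 9.47 and 10.8 CPM at 6 months. Only replicate 8 of the 6 lay within the 6-month range, and Musk rose in all 3 sets (0.90 ± 0.25, 1.22 ± 0.29 and 1.35 ± 0.32). Hdac4, a histone deacetylase that relays denervation to muscle genes, had 28.6 to 72.1 CPM against 24.0 to 35.6 CPM. It overlapped at replicates 8 and 10 and also rose in all 3 sets (0.71 ± 0.26, 1.19 ± 0.32 and 1.37 ± 0.35). Chrnb1, the beta subunit of the acetylcholine receptor, had 65.2 CPM in replicate 9, 15.8 to 36.4 CPM in the other 28-month libraries and 14.3 to 18.8 CPM at 6 months. It rose with and without the 4 libraries and missed the threshold without replicate 9 (adjusted p = 0.181). Other members, named after their values were seen, were spread more widely. Chrng, the fetal receptor subunit, had 0.354 to 3.59 CPM against 0.278 to 0.592 CPM (adjusted p = 0.225). Myog, which drives receptor genes, had 4.85 to 20.4 CPM against 4.41 to 11.6 CPM (adjusted p = 0.445).

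**Figure D3:**
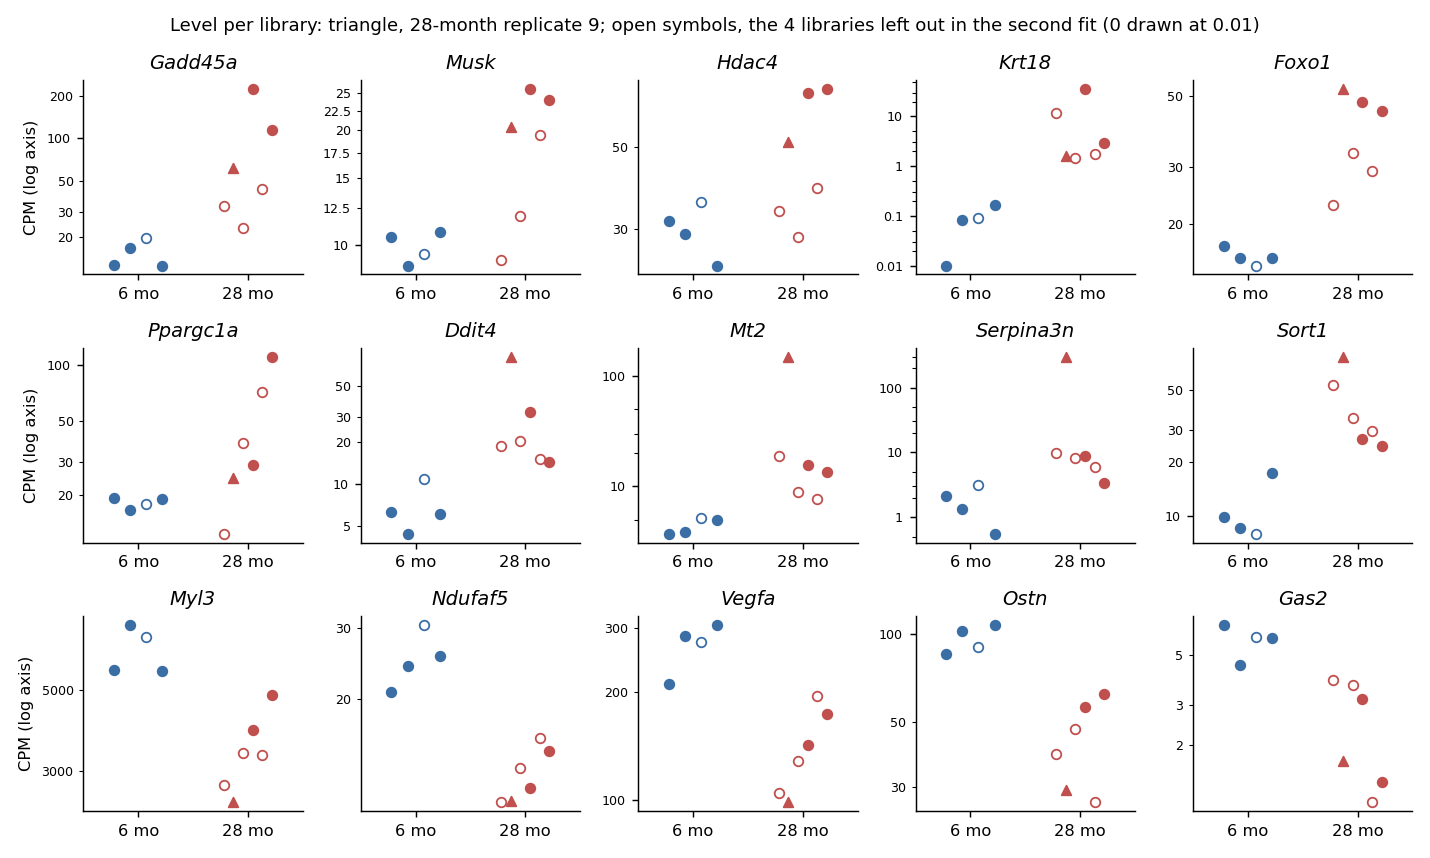
CPM (log axes) of 15 genes in each of the 10 libraries, with 28 months in red and 6 months in blue; the triangle is 28-month replicate 9 and open symbols are the 4 libraries left out; a level of 0 is drawn at 0.01. Gadd45a and Foxo1, picked among genes without overlap, lie higher in every 28-month library, while Serpina3n and Mt2 reach 297 and 150 CPM in replicate 9 alone.

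Fewer atrophy genes and glucocorticoid-responsive genes passed once 28-month replicate 9 was left out. Over all genes 9.91% rose and 9.04% fell with all libraries. Without the 4 libraries 1.49% of all genes rose, and without the 4 and replicate 9 0.209% rose. Of 30 genes of atrophy, ubiquitin ligases and FoxO, 8 rose and 1 fell with all libraries and 9 rose without 4, but 0 passed without the 4 and replicate 9 (median log2 fold change 0.40, 0.55 and 0.27). The 9 also became 3 without 6-month replicate 2 and 3 without 6-month replicate 4. With replicate 9 alone left out of the 10, 5 rose and 1 fell, beside 9.30% and 9.90% of all genes, and the median was 0.12. Of 22 genes of the glucocorticoid response and metallothioneins, 12 rose with all libraries, 11 without 4, 1 without the 4 and replicate 9, and 5 with replicate 9 alone left out (medians 0.89, 1.42, 0.77 and 0.56). Of the 22 genes 0 fell in any of these 4 sets.

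Fbxo32, the ubiquitin ligase atrogin-1, had 244, 944, 249, 356, 298 and 386 CPM at 28 months and 243, 227, 141 and 196 CPM at 6 months. Replicate 9 was far above the rest, yet every 28-month library was above every 6-month library. The log2 fold change of Fbxo32 was 1.03 ± 0.25 with all libraries, 1.34 ± 0.28 without 4 and 0.78 ± 0.27 (adjusted p = 0.188) without replicate 9 as well. Foxo1, the transcription factor upstream of such ligases, had 22.9, 52.6, 33.2, 47.7, 29.2 and 44.9 CPM against 17.1, 15.7, 14.8 and 15.6 CPM, again without overlap. Its log2 fold change differed little without replicate 9 (1.28 ± 0.31, 1.59 ± 0.38 and 1.56 ± 0.41, the last with adjusted p = 0.0501). Ddit4, an inhibitor of mTOR signalling that glucocorticoids induce, had 18.6, 81.0, 20.4, 32.9, 15.0 and 14.3 CPM against 6.32, 4.41, 10.8 and 6.11 CPM. Foxo1 and Ddit4 were picked among genes without overlap between the ages. The log2 fold changes of Ddit4 were 2.14 ± 0.47, 2.94 ± 0.58 and 2.12 ± 0.58, the last with adjusted p = 0.0682. Nedd4, another ubiquitin ligase, had 309 to 600 CPM against 214 to 306 CPM and rose with and without the 4 libraries (0.52 and 0.64) but not without replicate 9 (adjusted p = 0.267).

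Other members were highest in replicate 9. Cebpd, a transcription factor of the acute phase, had 151 CPM there and 12.3 to 27.6 CPM in the other 28-month libraries, against 7.31 to 25.1 CPM at 6 months. Its log2 fold change went from 2.92 to 1.25 (adjusted p = 0.244) without that library. Tsc22d3, the glucocorticoid-induced leucine zipper, had 212 CPM in replicate 9 and 79.3 to 114 CPM in the others, against 44.2 to 85 CPM, and went from 1.43 to 1.04 (adjusted p = 0.0867). Arrdc2 had 110.8 CPM and 9.36 to 40.6 CPM against 4.64 to 13.5 CPM, and went from 3.31 to 2.54 (adjusted p = 0.0765). Glul, glutamine synthetase, had 812 CPM and 154 to 244 CPM against 118 to 164 CPM, and went from 1.42 to 0.49 (adjusted p = 0.478). Depp1, a FoxO target chosen after its values were seen, had 73.6 CPM in replicate 9 and 15.6 to 55.0 CPM in the others, against 6.45 to 20.1 CPM. It rose in all 3 sets (1.78 ± 0.47, 2.74 ± 0.56 and 2.48 ± 0.59). Replicate 9 also held Lcn2, of the neutrophil list, at 42.9 CPM, against 0.278 to 0.551 CPM at 6 months. The whole neutrophil list summed to 72.7 CPM in replicate 9, so that Lcn2 alone made up most of it. The part of Lcn2 in the values above was not tested.

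The promoters of Mt2 and Trim63 are printed because each has a recognition sequence of a regulator, the metal-sensing factor for Mt2 and FoxO for Trim63. They are again from RefSeq, GRCm38.p6, in the gene's direction. Motifs of the glucocorticoid receptor were not searched. The core of the metal response element, TGCGCNC, by which the metal-sensing factor activates metallothioneins, lay 128 bases before the start of Mt2 (chr8:94172368-94172617, plus strand). The FoxO motif GTAAACA lay 194 bases before the start of Trim63 (chr4:134314870-134315119, plus strand), in the opposite orientation.
Mt2: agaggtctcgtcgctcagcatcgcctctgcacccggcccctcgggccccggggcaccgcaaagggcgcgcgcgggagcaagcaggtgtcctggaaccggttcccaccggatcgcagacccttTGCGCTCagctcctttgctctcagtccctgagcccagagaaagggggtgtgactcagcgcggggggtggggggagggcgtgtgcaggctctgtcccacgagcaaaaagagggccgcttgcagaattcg
Trim63: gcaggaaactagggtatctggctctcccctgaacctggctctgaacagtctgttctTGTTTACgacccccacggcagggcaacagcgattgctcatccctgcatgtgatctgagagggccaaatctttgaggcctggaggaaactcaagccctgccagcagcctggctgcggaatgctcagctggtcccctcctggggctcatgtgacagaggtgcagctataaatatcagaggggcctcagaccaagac
The metal response core is common: it occurs in 12.6% of all promoters, in 20.4% of the promoters of genes tested and in 4 of the 18 promoters of the glucocorticoid and metallothionein list (22.2%), which is near that share. The FoxO motif occurs in 3.09% of all promoters, in 2.39% of those of genes tested and in 2 of the 24 of the atrophy list (8.33%). Mt2, a metal-binding metallothionein, had 19.1, 150, 8.84, 15.6, 7.67 and 13.4 CPM at 28 months and 3.72, 3.89, 5.16 and 5.00 CPM at 6 months. Mt2 was picked among genes without overlap between the ages. Mt2 rose with and without the 4 libraries (3.01 ± 0.84 and 3.84 ± 1.02) and missed the threshold without the 4 and replicate 9 (1.84 ± 0.98, adjusted p = 0.383). Its neighbour Mt1 had 235 CPM in replicate 9, 22.4 to 35.8 CPM in the others and 14.3 to 26.3 CPM at 6 months (2.66 without 4, and 1.10, adjusted p = 0.377, without replicate 9 as well). Trim63, the ubiquitin ligase MuRF1, chosen after its values were seen, had 116, 412, 100, 200, 243 and 224 CPM against 117, 134, 103 and 131 CPM. It was no higher in replicates 8 and 10 than at 6 months. Trim63 rose with and without the 4 libraries (0.83 ± 0.26 and 1.13 ± 0.30) but not without replicate 9 (0.77 ± 0.31, adjusted p = 0.238).

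Among the 12 largest rises that held with and without the 4 libraries and did not overlap between the ages, Krt18 stood first. This keratin, best known from simple epithelia, had 11.6, 1.58, 1.46, 36.4, 1.76 and 2.99 CPM at 28 months and 0, 0.0827, 0.0899 and 0.167 CPM at 6 months. The log2 fold change of Krt18 was 6.84 ± 1.75 with all libraries and 7.46 ± 2.10 without 4. Serpina3n, a serine protease inhibitor, had 9.74, 297, 8.18, 8.92, 5.88 and 3.43 CPM against 2.11, 1.34, 3.12 and 0.556 CPM (6.23 ± 1.06 without 4, and 2.21 ± 0.84, adjusted p = 0.218, without replicate 9 as well). Csf2rb2, a cytokine receptor subunit, and Sv2b, a synaptic vesicle protein, were likewise highest in replicate 9, at 16.6 and 11.7 CPM. They had 2.39 to 5.35 and 1.13 to 6.42 CPM in the other 28-month libraries and 0.703 to 1.28 and 0.445 to 1.08 CPM at 6 months. Krt18, Csf2rb2 and Sv2b missed the threshold without replicate 9 (adjusted p = 0.0606, 0.189 and 0.27).

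Other rises of this group were more even among the 28-month libraries. Sort1, a sorting receptor that also builds the compartment of the glucose transporter, had 53.5, 77.0, 35.1, 26.7, 29.6 and 24.6 CPM at 28 months and 9.77, 8.50, 7.91 and 17.3 CPM at 6 months. The log2 fold change of Sort1 was 1.93 ± 0.28 (adjusted p = 1.27e-05) with all libraries and 1.87 ± 0.34 without 4, and 1.17 (adjusted p = 0.0876) without replicate 9 as well. Slc38a1, a glutamine carrier, had 2.25 to 10.0 CPM against 0.899 to 1.61 CPM and rose in all 3 sets (2.02 ± 0.39, 1.77 ± 0.46 and 2.15 ± 0.48). Cpne2, a calcium-dependent membrane-binding protein, had 8.99 to 24.3 CPM against 4.31 to 6.78 CPM (1.53 ± 0.36 and 1.61 ± 0.44). Tnfrsf23, a decoy receptor of the TNF family, had 4.79 to 13.9 CPM against 2.58 to 4.28 CPM (1.26 ± 0.36 and 1.54 ± 0.44). Cpne2 and Tnfrsf23 missed the threshold without replicate 9 (adjusted p = 0.0948 and 0.0658).

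Among the largest falls, Gas2, an actin-binding protein, had 3.87, 1.71, 3.69, 3.20, 1.13 and 1.38 CPM at 28 months and 6.78, 4.52, 5.99 and 5.95 CPM at 6 months. The falls named here were picked among genes without overlap between the ages. Gas2 fell in all 3 sets (-1.22 ± 0.23, -1.45 ± 0.28 and -1.29 ± 0.32). Kbtbd13, a ubiquitin ligase adaptor mutated in a nemaline myopathy, had 5.48 to 12.7 CPM against 18.7 to 24.4 CPM and fell in all 3 sets as well (-1.22 ± 0.26, -1.31 ± 0.34 and -1.61 ± 0.40). Gmnn, which holds back DNA replication, had 3.54 to 9.14 CPM against 12.5 to 16.2 CPM (-1.14 ± 0.25 and -1.44 ± 0.33). Slc41a3, a mitochondrial magnesium carrier, had 11.8 to 30.4 CPM against 44.3 to 69.9 CPM (-1.17 ± 0.25 and -1.38 ± 0.33). The remaining 3, Vwa3b, Hist1h4i and Chac2, fell by 1.83, 0.92 and 0.91 without the 4 libraries, and of these Hist1h4i, a histone gene, also fell without replicate 9. Gmnn, Slc41a3, Vwa3b and Chac2 did not (adjusted p = 0.115, 0.184, 0.167 and 0.274).

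The 32 genes that rose and the 11 that fell in all 3 sets of libraries included further members of the groups above and genes of no list. Named after their values were seen, Arrdc3, an adaptor that lowers receptor signalling, had 63.7, 80.6, 29.8, 70.4, 37.8 and 66.5 CPM at 28 months and 27.7, 27.3, 30.8 and 20.8 CPM at 6 months. Its log2 fold changes were 1.12 ± 0.23, 1.52 ± 0.26 and 1.47 without the 4 and replicate 9. Wasf2, of the actin nucleation machinery, had 25.9 to 50.2 CPM against 17.1 to 23.3 CPM, without overlap (1.08 ± 0.14, adjusted p = 1.94e-06, with all libraries). Wnk2, a kinase of ion transport, had 45.3 to 127 CPM against 32 to 38.5 CPM. Med15, a subunit of Mediator, had 24.4 to 37.3 CPM against 14.4 to 21.9 CPM, and Zmiz1, a transcriptional coregulator, 27.7 to 52 CPM against 12.6 to 18.4 CPM. None of the 3 overlapped. Cntfr, the receptor of a neurotrophic factor of nerve and muscle, had 3.14 to 25.4 CPM against 3.17 to 4.50 CPM, with overlap, and rose in all 3 sets (1.3 ± 0.41, 1.71 ± 0.49 and 2.05 ± 0.52). Hes1, a target of Notch signalling, had 30.1 CPM in replicate 8 and 8.55 to 15.3 CPM in the other 28-month libraries, against 20.7 to 29.6 CPM at 6 months. Hes1 fell in all 3 sets (-0.68 ± 0.23, -1.13 ± 0.27 and -1.27 ± 0.31).

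In the insulin, IGF and growth signalling list of 30 genes, 8 rose and 2 fell with all libraries, 5 rose and 1 fell without 4, and 0 passed without replicate 9 as well. The shares of all genes were 9.91% rising and 9.04% falling, then 1.49% and 1.00%, then 0.209% and 0.334%. Deptor, an inhibitor of mTOR, had 24.2, 45.0, 22.4, 21.6, 15.2 and 20.0 CPM at 28 months and 12.7, 7.44, 7.46 and 13.9 CPM at 6 months, without overlap. It rose by 1.26 ± 0.20 and 1.36 ± 0.24 in the first 2 sets, and had 0.92 ± 0.24 (adjusted p = 0.0549) without replicate 9. Stat3, a cytokine signal transducer, and Igf2r, the receptor that removes IGF2, rose with and without the 4 libraries (0.82 and 0.97 without), and Igfbp6, which binds IGF2, fell (-1.17). Of 22 circadian clock genes 3 rose in each of the 2 sets, 2 of them in both, and 0 passed without replicate 9, beside 9.91%, 1.49% and 0.209% of all genes rising. Rora, an activator of the clock, had 25.2 to 110.7 CPM against 14.1 to 28.2 CPM and rose by 1.44 without the 4 libraries. Cry2, a repressor of it, had 37.8 to 97.1 CPM against 31.1 to 46.3 CPM and rose by 1.11.

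The next counts stand beside 9.91% of all genes rising and 9.04% falling with all libraries, and 1.49% and 1.00% without 4. Of 34 antioxidant genes and NRF2 targets 9 rose and 6 fell with all libraries, 5 rose without 4 and 1 rose without replicate 9 as well. Gstm1, a glutathione transferase, had 89.6 to 159 CPM against 77.6 to 93.1 CPM, and Gclc, which makes glutathione precursors, had 17.2 to 25.8 CPM against 14.6 to 16.1 CPM; they rose by 0.68 and 0.59 without the 4 libraries and missed the threshold without replicate 9 (adjusted p = 0.112 and 0.064). Of 31 p53 targets and senescence markers 5 rose and 2 fell with all libraries, 3 rose without 4 and 1 rose without replicate 9 as well. Trp53inp1, a p53-induced gene, had 8.60 to 21.9 CPM against 4.39 to 7.90 CPM, without overlap, and rose by 1.34 ± 0.31 and 1.28 ± 0.37, but not without replicate 9 (adjusted p = 0.235). The senescence markers Cdkn1a (36.5 to 94.5 CPM against 18 to 52.6 CPM, adjusted p = 0.245), Cdkn2a (0 to 0.661 CPM against 0.110 to 0.278 CPM) and the stress hormone Gdf15 (0.124 to 2.32 CPM against 0.329 to 0.834 CPM) did not pass in either set. Of 36 autophagy and lysosome genes 5 rose and 5 fell with all libraries and 3 rose without 4: Gaa, the lysosomal glucosidase, by 1.28, Sqstm1, the autophagy receptor p62, by 0.62, and Ctsl, a lysosomal protease, by 0.50. Gaa and Sqstm1 were highest in replicate 9, at 383 and 893 CPM, and none of the 3 passed without it.

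Several lists had members that rose with all libraries, where 9.91% of all genes rose, and 0 without the 4, where 1.49% rose. For lists this short a count of 0 is near that share. Of 17 neutrophil markers 17 rose with all libraries and 0 of 16 tested passed without 4. Of 16 erythroid markers tested 14 rose and 0 of 14 passed, and of 11 bone markers 10 rose and 0 of 9 passed. Replicates 10 and 12 were left out because of their neutrophil and erythroid markers. The loss of the neutrophil and erythroid calls was therefore set in advance and is no finding about age. Bone markers summed to 1153 CPM in replicate 10 and 124.98 CPM in replicate 12, against 25.7 to 42.7 CPM at 6 months; the other sums are given above. The neutrophil marker Cd177 was at 0 CPM in all 4 of the 6-month libraries. Of 28 cell cycle genes 15 rose with all libraries (median log2 fold change 1.80) and 0 without 4 (median 0.05). They summed to 191, 104, 497, 97.1, 187 and 98.2 CPM in 28-month replicates 8 to 13 and to 84.2 to 102 CPM at 6 months. The libraries high for cell cycle genes were the 3 left out. Of 39 interferon response and antigen presentation genes 16 rose with all libraries and 0 without 4, with summed levels of 1352, 616, 1439, 1014, 1411 and 544 CPM against 411 to 650 CPM. Their median log2 fold change was 1.01 with all libraries and 0.39 without 4, where 34 of 39 values were positive. Irf7, the inducer of interferon genes, had 8.77 to 26.9 CPM against 3.17 to 4.86 CPM, without overlap, and a log2 fold change of 1.63 ± 0.46 with all libraries and 1.27 (adjusted p = 0.195) without 4. Of 26 immediate early genes 6 rose with all libraries and 0 without 4. Their median log2 fold change was 0.87 with all libraries and 0.70 without 4, where 24 of 26 values were positive. Myc had 7.01 to 14.6 CPM against 1.80 to 3.56 CPM, without overlap, and a log2 fold change of 2.00 (adjusted p = 0.071) without 4.

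Of 16 tested B cell and plasma cell markers 9 rose with all libraries and 2 without 4, beside 9.91% and 1.49% of all genes, and the same 2 passed without replicate 9. Igkc, the kappa light chain constant region, had 1.86, 0.336, 272, 241, 9.87 and 0 CPM at 28 months and 0, 0.248, 0.330 and 1.22 CPM at 6 months. Ighm, the heavy chain of IgM, had 38.4, 1.96, 632, 461, 38.4 and 24.4 CPM and 3.88, 4.27, 6.74 and 17.3 CPM. Replicates 10 and 11 carried most of the level of both, and the ages overlapped. Without replicate 11 in addition to the 4 libraries, the log2 fold change of Igkc went from 7.60 to -1.48.

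For 112 genes that passed with all libraries the log2 fold change had the other sign without the 4, and 107 of these had risen. Ctsk and Acp5, enzymes of bone-resorbing osteoclasts, had 234 and 216 CPM in replicate 10 against 6.29 to 10.3 and 0.954 to 2.76 CPM at 6 months. Their log2 fold changes went from 2.66 and 4.33 to -0.46 and -0.05. Mmp13, a collagenase, had 83.4 CPM in replicate 10, 10.2 CPM in replicate 12 and 0 to 0.133 CPM in the other 28-month libraries. Hba-a2, an alpha globin, had 2718 and 465 CPM in those libraries and 16.6 to 54.0 CPM in the others. Tchh, of the hair follicle, had 65.7 CPM in replicate 8 and 0 to 0.684 CPM in the others. Slc15a5, a peptide carrier, had 9.17 CPM in 6-month replicate 3 and 0.165 to 1.19 CPM in the other 9 libraries. Of 23 collagen genes 2 rose with all libraries, which is near the 9.91% of all genes that rose. They were Col1a1 and Col1a2, chains of type I collagen, at 1679 and 1630 CPM in replicate 10. Without that library alone their log2 fold changes were -0.0863 and -0.27. Without the 4 libraries 0 passed, the median was -0.68 and 22 of 23 values were negative.

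Among 64 cytosolic ribosomal protein genes 8 fell with all libraries, 22 with replicate 9 alone left out and 0 without the 4. Of all genes 9.04%, 9.90% and 1.00% fell in these sets. Of the 64 values 63 were negative with all libraries and 57 without the 4. With all libraries, where 9.91% of all genes rose and 9.04% fell, of 31 proteasome subunit genes 1 rose and 5 fell, of 34 chaperone genes 1 rose and 4 fell, and of 33 tested genes of the unfolded protein and integrated stress response 11 rose and 2 fell. Beside 1.49% of all genes rising and 1.00% falling, 0, 0 and 1 passed without the 4 libraries. The last was Chac1, a glutathione-degrading enzyme, at 98.7 CPM in replicate 9 and 3.64 to 41.4 CPM in the others, against 7.47 to 13.0 CPM; it missed the threshold without replicate 9 (adjusted p = 0.323). Of 22 endothelial markers 7 rose with all libraries and 0 without 4, of 19 adipocyte markers 3 and 0, of 24 macrophage markers 5 and 0, of 15 T and NK cell markers 1 and 0, and of 17 Schwann cell markers 0 and 0.

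**Figure D4:**
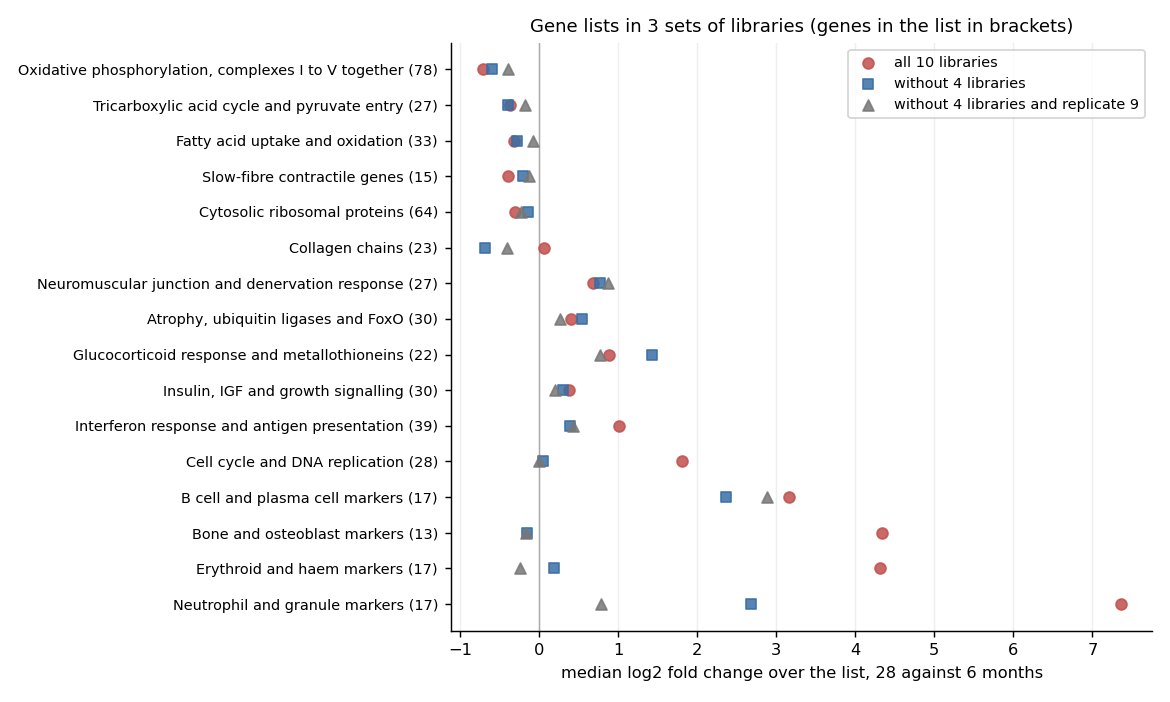
Median log2 fold change of 28 against 6 months (horizontal axis) over 16 gene lists in 3 sets of libraries: all 10 (red circles), without 4 (blue squares) and without the 4 and replicate 9 (grey triangles). The respiratory chain lies below 0 and the denervation list above 0 in each set, and the median of neutrophil markers goes from 7.36 to 2.68 and 0.79.

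The age change was also compared with that of the M libraries of batch 1 (5 at 28 months, 6 at 6 months) by a test of the difference between the changes. With all libraries the difference passed for 60 genes, higher in M for 20 (0.110%) and lower for 40 (0.220%). Without the 4 F libraries it passed for 63 genes, 32 higher (0.174%) and 31 lower (0.169%). In these tests 2157 and 2263 genes had an unadjusted p under 0.05. DESeq2 called 286 and 260, and limma-voom 40 and 0 (1670 at an unadjusted p under 0.05). Without 1 F library the first count was 34, 110 or 149 (28-month replicates 10, 11 and 13) and 13, 3 or 17 (6-month replicates 2, 3 and 4). The second count was 37, 508 or 115 (28-month replicates 9, 11 and 13) and 6 (6-month replicate 1). The 6-month M group holds 1 library with Xist at 84.9 CPM, against its label. Gas2, of the 6 genes with the smallest p of the difference without the 4 libraries, fell in F libraries and rose in M libraries (3.67 to 6.50 CPM at 28 months, 2.98 to 4.00 CPM at 6 months, log2 fold change 0.60). The changes differed by 2.06 ± 0.34 (adjusted p = 0.00154). Zbtb7c, a transcriptional repressor, fell by 2.87 in the F libraries without the 4, had 11.4 CPM in the skin-marked replicate 8 that was left out, and differed from M by 3.40 ± 0.61. Map6, which stabilises microtubules, fell by 0.94 in F and rose by 0.62 in M, and Dach1, a transcription factor, rose by 1.61 in M and had -0.38 ± 0.31 in F.

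Serpina3n and Spns2, a lipid exporter, had lower changes in M than in F (-6.36 ± 1.19 and -2.43 ± 0.47). Both were highest in F replicate 9, at 297 and 92.6 CPM, against 3.97 to 12.7 and 10.5 to 15.0 CPM in M at 28 months. Without that library the differences were -2.33 and -1.02 (adjusted p = 0.347 and 0.286). Among the groups, 0 of the 78 genes of the respiratory chain differed between M and F without the 4 F libraries. Of all genes 0.343% differed, so that this count does not set the 78 apart. Their median log2 fold change was -0.49 in M libraries, -0.59 in F libraries without the 4 and -0.71 in all F libraries. For Ppard the change in M minus that in F was -1.11 ± 0.26 (adjusted p = 0.0319), with 22.9 to 27.5 CPM in M at 28 months and 23.4 to 33 CPM at 6 months.

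**Figure D5:**
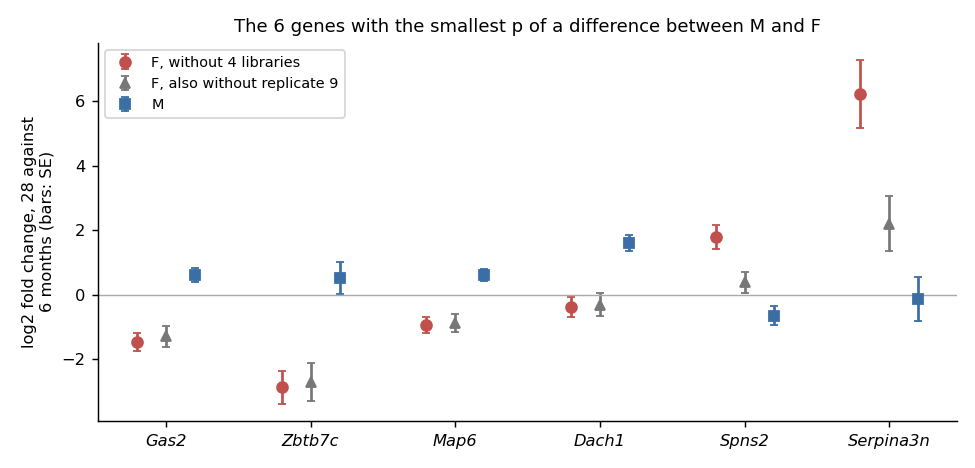
Log2 fold change of 28 against 6 months (vertical axis, bars are SE) of the 6 genes with the smallest p of a difference between M and F: red circles, F libraries without the 4; grey triangles, F also without replicate 9; blue squares, M libraries. Serpina3n goes from 6.23 to 2.21 and Spns2 from 1.79 to 0.39 in F without replicate 9, while Gas2, Zbtb7c and Map6 stay below 0.

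Batch 2 held 7 further F control libraries of 28 months, whose levels are given beside those above without a test, because they would share the 6-month libraries and differ in batch. Their ranges were 10.7 to 165 CPM for Gadd45a, 21.7 to 38.9 CPM for Musk, 21.9 to 35.5 CPM for Foxo1, 25.2 to 59.7 CPM for Sort1, 0.900 to 81.1 CPM for Krt18 and 30.8 to 50.9 CPM for Ppard. For Fbxo32, Mt2, Serpina3n and Trim63 they were 316 to 388, 3.90 to 36.9, 3.63 to 15.6 and 74.1 to 146 CPM. For Ndufaf5, Mrps33, Uqcrfs1, Vegfa and Ostn they were 7.74 to 14.1, 20.2 to 29.8, 316 to 498, 122 to 243 and 38.1 to 64.0 CPM. For Myl3 the range was 2958 to 4131 CPM.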

How the data were processed

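RNA sequencing counts per gene of mouse soleus were used. The values are expected counts, which the authors deposited in 1 table of the series; FastQC, STAR 2.7.11b, RSEM 1.3.3 and build mm10 are named, per the submitters' processing notes. Which annotation release and strand setting were used is not given in the sources used here. Reads of overlapping, antisense or near-identical genes may therefore be split or shared between them. Of the values 8.99% were not whole (tolerance 1e-06), and all were rounded. A total of 55 columns that match no sample label were not used. Gene IDs were matched to symbols of GENCODE M21 for 35338 IDs; the other 1566 hold 0.881% of all counts. The tag M28 stands here for 28 months.

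Of 78 libraries, 2 of 12 months share an animal tag and were summed, which left 77 replicates in 11 groups. Genes were kept by edgeR's filterByExpr (minimum count 10, minimum total 15). One edgeR quasi-likelihood fit of all 11 groups with TMM scaling gave the contrast of 28 against 6 months in F libraries, and the contrast of M with F, with Benjamini-Hochberg adjustment over all genes tested (R 4.3.3, edgeR 4.0.16, limma 3.58.1, DESeq2 1.42.0). All groups were fitted together so that 10 libraries did not have to give the spread alone. The SE is that of the quasi-likelihood F. The steps were tested on simulated data. P-values measure the spread between labelled replicates, which are not stated to be separate cages or extractions. Levels in CPM come from the same fit, while marker sums and Xist are scaled by the library total alone. The 10 libraries held 19460372 to 77584756 counts.

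The text names the 12 genes that rose most and the 12 that fell most without the 4 libraries, among genes that passed in both sets, did not overlap between the ages and averaged 2 CPM or more at the age where they were higher (Gm, Rik, immunoglobulin, receptor, pseudogene and Y-linked symbols left out), up to 4 genes per list with the smallest p without the 4 among those past the threshold in either set, the myosin heavy chains and senescence markers, up to 6 genes whose sign differed between the sets, and the 6 smallest p of the M against F difference. The comparison, its members and the gene lists were chosen with earlier results of these data known. Alternatives were other scalings, filters, tools, groups in the fit, offsets for length and GC content, and libraries left out.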

Additional observations from a re-analysis of the deposited data

Results flagged for a closer look

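Among 82 groups of 4 or 6 values that were checked for 1 value far from the rest, 16 held such a value. The limit used would flag about 1 in 20 groups of normally distributed values. That rate does not apply here, because the values need not be so distributed. The skin and marrow markers also served to pick libraries to leave out. At 28 months, replicate 13 had the deepest library, at 59.4 megacounts (59401193 counts). Replicate 8 stood apart in keratinocyte markers, at 11477 CPM. Replicate 10 did so in neutrophil (1905 CPM), erythroid (11029 CPM) and bone (1153 CPM) markers. Replicate 9 stood apart in smooth-muscle markers, at 12839 CPM, and in fast-fibre genes, at 90569 CPM.

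The same replicate 9 was the highest for Serpina3n (297 CPM), Mt2 (149.9 CPM), Csf2rb2 (16.6 CPM) and Ddit4 (81.0 CPM) and the lowest for Slc41a3 (11.8 CPM). Replicate 11 was the highest for Krt18, at 36.4 CPM. At 6 months, replicate 4 stood apart in keratinocyte markers (85.2 CPM), and replicate 1 in tendon markers (711 CPM), where it was high, and in Mrps33 (45.5 CPM), where it was low.

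The change from 6 to 28 months differed between M and F libraries by the test of the difference itself, without the 4 F libraries, for 6 genes described. The log2 change in M minus that in F was 2.06 for Gas2, 3.40 for Zbtb7c, 1.56 for Map6 and 1.99 for Dach1, and it was -6.36 for Serpina3n and -2.43 for Spns2.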

How the results depend on the processing

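No paired analysis was possible because the 28-month libraries are numbered 8 to 13 and the 6-month libraries 1 to 4, so that no number is shared. The count of genes called over the 10 libraries, 3452, became 0 in a fit of the compared groups only (also with the legacy robust fit), 1656 there with DESeq2, 2057 with length and GC offsets, 1287 against a fold of 1.2 and 1820 without the skin and both marrow libraries, and lay between 1194 and 4446 with 1 library left out. Without the 4 libraries, 457 became 909 with DESeq2, 221 with no filter, 1 in the compared groups only (also with the legacy robust fit), 253 there with DESeq2, 129 in batch 1 groups, 135 with the offsets, 70 against a fold of 1.2, 1029 without libraries of other groups whose X and Y transcripts go against their labels, 1304 without those and others with skin or marrow transcripts, and 77 to 1284 with 1 library left out. The M against F count of 60 became 286 with DESeq2, 37 with no filter, 15 in batch 1 groups, 92 without the mitochondrial genome, 0 in the 4 groups only, 129 without the mismatched 6-month M library and 3 to 149 with 1 library left out. The count of 63 became 260 with DESeq2, 0 with limma-voom, 31 with no filter, 138 at a minimum count of 50, 15 in batch 1 groups, 12 with the offsets, 0 in the 4 groups only, 95 without the M library and 6 to 508 with 1 library left out. The direction of a named gene turned without the skin and both marrow libraries for Acp5 (-0.16), Ctsk (-0.33), Mmp13 (-1.52), Hba-a2 (-0.36), Zbtb7c (-2.62), Col1a1 (-1.12) and Col1a2 (-1.14), without both marrow libraries for Mmp13 (-0.90), Hba-a2 (-0.17) and Col1a1 and Col1a2 (-0.31 and -0.41), and with 1 library left out for Col1a1 (-0.0863 to 2.94), Col1a2 (-0.27 to 2.28) and Igkc without the 4 (-1.48 to 9.04). Of the other values for named genes, apart from those with 1 library left out, 2713 kept direction and side of the threshold. A further 724 lost the call and 34 gained one. Some of these settings used fewer libraries or groups and others used the same ones. Why calls were lost was not tested. Fits with DESeq2 on the compared groups, the legacy fit on them and the removal of other groups' libraries with skin or marrow transcripts were chosen after the data were seen. With 3 libraries at each age, genes of low level and genes that vary between libraries of 1 age were beyond what these data resolve.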
